A study of Mus musculus with 6 samples.

Results

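The transcriptome of the normal mouse oviduct during embryo transit was described from 3 wild-type arrays, out of 6 arrays in the series. These 3 were chosen by their titles and by the genotype label Wt1 +/+. Each array held RNA from oviducts of MF1 mice, an outbred stock. Wild-type males sired the litters, and collection was at embryonic day 2.5, after which the tissue was rinsed in PBS. Biotin-labelled cRNA was made from 1 µg of total RNA per sample. The other 3 arrays carry the genotype Wt1 ko/+ and enter no value given in this section. No age is given, and the labels do not say whether a sample came from a single animal or a pool, so each SD describes the 3 RNA samples and may hold technical as well as biological variation.

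The oviduct carries eggs, sperm and early embryos between ovary and uterus. Its folded lining is an epithelium of secretory cells, which release glycoproteins and other factors into the tubal fluid, and multiciliated cells, whose beating cilia help to move the egg. Around it lie a stroma of fibroblasts and vessels, a smooth muscle coat that contracts to propel the contents, and an outer mesothelium. Estrogen and progesterone, acting through nuclear receptors, set the balance of secretion, ciliation and contraction.

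The array reports each transcript by a probe set, a group of short probes near the 3' end of the transcript. Levels are the deposited linear intensities, given as log2 where an SD is attached, and every SD is over the 3 arrays (n = 3). A gene was represented by the brightest of its probe sets, which left 18193 genes. An order of intensities is not strictly an order of transcript abundance, because brightness also depends on how well each probe set binds. The array medians were alike at 157.1, 158.2 and 156.7 in wild-type replicates 1, 2 and 3. Across genes, pairs of arrays correlated with Pearson's r of 0.960 to 0.969. Control probe sets against both ends of the Actb transcript gave a ratio of 3' over 5' signal, which rises when RNA is shortened, of 1.74, 2.40 and 5.90 in replicates 1, 2 and 3. The same ratio for Gapdh was 0.740, 1.07 and 2.39. Replicate 3 thus stood apart from both others on this measure.

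The median gene had a mean log2 intensity of 8.57, and the 90th percentile lay at 11.23. No detection calls were used. As a stand-in for background, the 95th percentile of 38 olfactory receptor genes was taken, which lay at 7.17 on the log2 scale or an intensity of 143.9. By that measure 12028 genes, or 66.1%, lay above the reference level on average, and 11457 did so in all 3 arrays. A dim probe set does not show that a transcript is missing. Rps16, a ribosomal protein that every growing cell needs, has a single probe set here, and its intensities were 1.16, 1.28 and 3.16.

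Machinery of protein synthesis and the oviduct's own secretory product held the top of the order. Of the 40 genes of highest mean intensity, 22 encode ribosomal proteins and 2 are translation factors or regulators (Eef1a1 and Tpt1). Rps18, a component of the small ribosomal subunit, ranked 1 with intensities of 18256, 21171 and 25640 in replicates 1, 2 and 3. Rps29, of the same subunit, ranked 2 with 18715, 20868 and 23219. Ovgp1, the secreted oviduct-specific glycoprotein that coats the zona pellucida of eggs and embryos in transit, ranked 3 with 17928, 20680 and 22924 (log2 mean 14.32 ± 0.18). It held rank 3 in every array. In all 3 genes replicate 1 was lowest and replicate 3 highest.

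Outside protein synthesis, 16 other genes stood in the top 40. Besides Ovgp1, they include further secreted or surface proteins. Dcpp1, a secreted protein of the demilune cell and parotid protein family, ranked 17 with intensities of 14473, 16245 and 19442. Wfdc18, a small secreted protein with a WAP domain, ranked 31 with 12616, 15060 and 17249. Plet1, a surface protein named for its expression in placenta, ranked 34 with 13088, 15211 and 15848. By these probe sets all 3 were lowest in replicate 1 and highest in replicate 3. Another bright probe set of Plet1 went the other way, with 8348, 7613 and 3142 in replicates 1, 2 and 3. Tuba1a, an alpha-tubulin that builds microtubules, ranked 5 at 14.19 ± 0.20. Its only probe set has an identifier that marks possible cross-hybridization, and the tubulin genes Tuba1b and Tuba1c were not analysed here. The actin cytoskeleton was represented by Actg1, by Gsn, which severs actin filaments, and by the actin-binding thymosins Tmsb4x and Tmsb10. The chaperones Hspa8 of the cytosol and Hspa5 of the endoplasmic reticulum ranked 12 and 23. Ifitm3, an interferon-induced membrane protein that restricts virus entry, ranked 13 at 14.04 ± 0.26. The others were Pdxk, which activates vitamin B6, the aldehyde reductase Akr1a1, the ferritin heavy chain Fth1 and the mitochondrially encoded subunit ND5 of respiratory complex I.

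**Figure D1:**
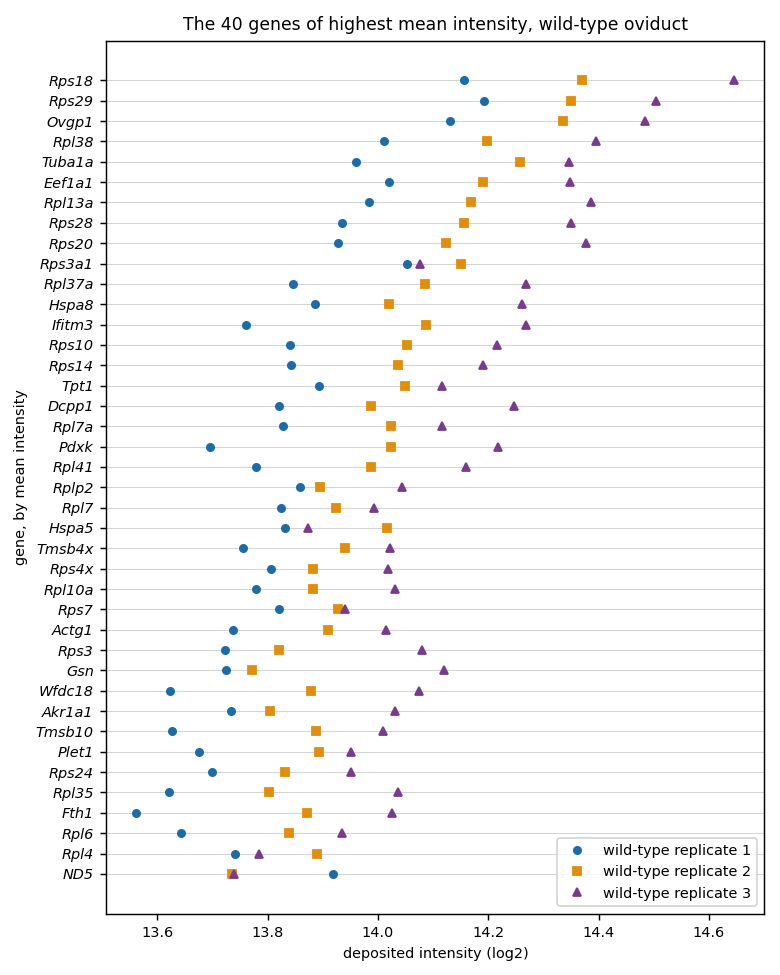
Log2 intensity of the 40 genes of highest mean in each of the 3 wild-type arrays (points, by replicate), ordered by mean from Rps18 at the top to ND5. Replicate 3 lies to the right for most genes, ND5 is highest in replicate 1, and neighbouring genes overlap throughout.

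The means of these 40 genes spanned 13.80 to 14.39, and their SDs 0.05 to 0.26. The 40 neighbouring pairs ran from rank 1 to the gene just below rank 40. In each pair the gap was smaller than the larger of both SDs. These SDs include shifts shared by most bright genes, so the comparison does not show whether neighbours kept their order within each array. Ovgp1 lay above Rpl38 in every array, whereas Rps18 and Rps29 changed places between arrays. Membership was firmer than order: 9 genes were in the top 10 of all 3 arrays, 28 in the top 40 and 79 in the top 100. The bright end also differed between arrays as a whole. Of the 100 highest genes, 89 were highest in replicate 3 and 96 were lowest in replicate 1. Replicate 3 also had the highest and replicate 1 the lowest 3' to 5' ratios, whose part in this was not tested. The highest intensities lie at the top of the array's range, where brightness may no longer follow abundance. The choice of probe set decided much of this list. With the mean of all probe sets of a gene in place of the brightest, 22 of the 40 genes remained in the top 40. Without probe sets whose identifiers mark possible cross-hybridization, 24 remained.

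Among the 100 highest genes, 32 were ribosomal proteins, 4 translation factors and 5 subunits of oxidative phosphorylation, the mitochondrial chain that makes ATP. That is 65.3% of the 49 ribosomal protein genes measured, where 0.550% of all genes lie in the top 100. The median ribosomal protein stood at percentile 99.71 ± 0.01, and 45 of 49 lay above the median gene. Oxidative phosphorylation genes had a median percentile of 95.8 ± 0.33, with 74 of 83 above the median gene. For 59 translation factors the value was 85.9 ± 1.09.

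Promoters were set beside these levels to show what the most abundant class shares in sequence. The 250 bases before each annotated start were taken from RefSeq (GRCm38.p6) for 43 of the 49 ribosomal protein genes, as 51 promoters. The letters CTTCCGG, the core of an ETS-type site, searched on both strands, stood in 17 of these 51 (33.3%), against 6.91% of all 32851 promoters. In 3 genes of the top 10 the matched letters, in capitals and here in the reverse orientation, lay as follows in windows of 60 bases.
Rps18 (chr17:33955790-33955849, minus strand): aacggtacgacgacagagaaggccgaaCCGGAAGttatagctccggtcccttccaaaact
Rpl38 (chr11:114668520-114668579, plus strand): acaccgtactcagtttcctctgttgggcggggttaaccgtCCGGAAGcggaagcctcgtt
Rps3a1 (chr3:86142669-86142728, minus strand): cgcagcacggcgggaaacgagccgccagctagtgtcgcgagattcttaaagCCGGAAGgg
The match ended 151, 14 and 3 bases before the start of Rps18, Rpl38 and Rps3a1. A match is a description of letters, not evidence of a bound site. In all, 13 motifs were searched after the levels had been seen.

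The epithelium was strongly represented. All 19 measured genes of a list of general epithelial markers lay above the median gene, against 50% of all genes, and their median percentile was 95.9 ± 0.10. The highest was Krt18, a keratin of simple epithelia, at 13.51 ± 0.10. Spint2, a membrane protease inhibitor, followed at 13.47 ± 0.21. Cdh1, the adhesion protein E-cadherin, had intensities of 9070, 9419 and 10004, and Krt8, the partner of Krt18, stood at 13.07 ± 0.41. The lowest member was the tight junction protein Cldn4, at 9.15 ± 0.40. Keratins as a family were not high: of 48 measured, 7 lay above the median gene and 14 above the reference level. The latter is 29.2%, against 66.1% of all genes. Krt18, Krt8, Krt19 (12.74 ± 0.18) and Krt7 (10.58 ± 0.30) were its 4 highest members. Among 20 claudins, the sealing and pore proteins of tight junctions, 12 lay above the median gene. Cldn3 led at 12.40 ± 0.29, followed by Cldn7 at 11.72 ± 0.23, Cldn2 at 11.20 ± 0.11 and Cldn10 at 11.16 ± 0.35.

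Secretory cell markers ranged from the top of the array to below the reference level. Of 13 measured, 10 lay above the median gene, 6 above the 90th percentile and 2 below the reference level. Over all genes, 33.9% lay below it. After Ovgp1 came Clu, the extracellular chaperone clusterin, with intensities of 9975, 11497 and 13546. Ltf, the iron-binding antimicrobial protein lactoferrin, had 10080, 12220 and 12137. Sox17, a transcription factor of the endoderm and of the oviductal epithelium, had 9255, 8800 and 9939 (13.19 ± 0.09). Its level rests on a probe set marked for possible cross-hybridization, and its other probe set lay at 10.96. By the probe sets used, none of these 4 genes fell below 8800 in any array.

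Further secretory markers were less bright. Lcn2, which binds bacterial siderophores, had intensities of 3977, 7082 and 6301 (12.46 ± 0.44), and Wfdc2, a WAP domain protein secreted by many epithelia, had 3909, 5216 and 4856. Pax8, the paired box factor that marks secretory cells of the tube, had 1744, 2863 and 2585 (11.20 ± 0.38), rank 1883. All 3 were lowest in replicate 1. The other probe set of Pax8 lay at 5.52, below the reference level. The epithelial peptide Tff3 (6.50 ± 0.24) and the mucin Muc4 (5.51 ± 0.52) were below the reference level. The median percentile of the list was 84.9, 92.2 and 90.6 in replicates 1, 2 and 3. C3, Spp1 and Pax2 were not analysed here.

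The promoter of Ovgp1 is shown because this gene is the oviduct's characteristic product and is known to respond to estrogen. Its 250 bases before the start hold the letters AGGTCA, a half-site of many nuclear receptors, 1 time, in capitals.
Ovgp1 (chr3:105973552-105973801, plus strand, GRCm38.p6): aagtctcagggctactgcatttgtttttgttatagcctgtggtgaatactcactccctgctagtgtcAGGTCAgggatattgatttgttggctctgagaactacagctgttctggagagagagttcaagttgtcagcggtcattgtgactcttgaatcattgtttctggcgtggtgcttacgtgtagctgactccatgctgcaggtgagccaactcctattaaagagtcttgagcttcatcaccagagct
On both strands these letters stood in 14.0% of all promoters, in 3 of 11 promoters of secretory marker genes (27.3%) and in 6 of 16 of general epithelial genes (37.5%). The full estrogen response palindrome stood in 0.0639% of all promoters and in 0 of the 11 secretory ones.

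Regulators and structural parts of motile cilia, the markers of multiciliated cells, were mostly above the median gene. Foxj1, the forkhead factor that switches on genes of motile cilia, had intensities of 4616, 4018 and 4386 (12.08 ± 0.10), rank 781, from its only probe set. Myb, which acts early in multiciliated differentiation, had 3534, 3365 and 3311 (11.73 ± 0.05). By these probe sets both varied little over the arrays. That of Myb is marked for possible cross-hybridization. Other probe sets of Myb were less even and lowest in replicate 3, with 3258, 3391 and 2235, and with 932, 846 and 430. Rfx3, a regulator of ciliary genes, stood at 10.68 ± 0.18, the cell cycle factor E2f5 at 10.50 ± 0.16 and its relative E2f4 at 8.05 ± 0.24. All 10 measured regulators lay above the reference level and 7 above the median gene, against 66.1% and 50% of all genes. Mcidas and Gmnc were not analysed here.

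Of 35 measured genes of the ciliary axoneme, 33 lay above the median gene and 12 above the 90th percentile (34.3%, against 10% of all genes). Their median percentile was 87.4, 88.5 and 85.4 in replicates 1, 2 and 3. Dynlrb2, a dynein light chain, led with intensities of 9398, 10764 and 11102. Pifo, a protein linked to cilia, had 6498, 5419 and 6132. Cfap126 had 5243, 6455 and 6338, and Ak7, an adenylate kinase of cilia, had 5507, 5252 and 5782. None of these 4 fell below 5243 in any array. Hydin, a protein of the central pair of microtubules, stood at 11.04 ± 0.05. The dynein heavy chains Dnah9, Dnah11 and Dnah5 stood at 11.05, 10.44 and 8.38. Spag17, also of the central pair, was the only member below the reference level, with intensities of 114, 96.9 and 53.1.

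Some of the ciliary genes share a promoter feature. The X-box, a pair of inverted half-sites bound by RFX factors, was searched on both strands in 37 promoters of 31 of the 35 genes. It stood in 8 promoters of 7 genes (21.6%; Tekt2 has overlapping promoters), against 424 of all 32851 promoters (1.29%). The 7 genes are shown with the match in capitals, in windows of 60 bases (GRCm38.p6).
Dynlrb2 (chr8:116504940-116504999, plus strand): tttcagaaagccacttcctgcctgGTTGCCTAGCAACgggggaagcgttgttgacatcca
Dnaic2 (chr11:114727359-114727418, plus strand): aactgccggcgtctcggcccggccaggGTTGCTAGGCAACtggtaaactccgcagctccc
Lrrc23 (chr6:124779856-124779915, minus strand): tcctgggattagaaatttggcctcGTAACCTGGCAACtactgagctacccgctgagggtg
Hydin (chr8:110266917-110266976, plus strand): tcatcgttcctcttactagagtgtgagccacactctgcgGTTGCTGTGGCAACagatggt
Dnaic1 (chr4:41569734-41569793, plus strand): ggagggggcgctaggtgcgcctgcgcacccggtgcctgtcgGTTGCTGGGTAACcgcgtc
Spag16 (chr1:69826844-69826903, plus strand): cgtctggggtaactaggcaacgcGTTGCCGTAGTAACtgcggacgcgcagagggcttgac
Tekt2 (chr4:126325689-126325748, minus strand): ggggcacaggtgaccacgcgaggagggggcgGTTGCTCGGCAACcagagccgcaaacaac
They are listed by level, from Dynlrb2 at 13.34 through Dnaic2 at 11.93, Lrrc23 at 11.45, Hydin at 11.04, Dnaic1 at 9.24 and Spag16 at 9.19 to Tekt2 at 8.61. The shorter half-site GTTGCCA stood in 6 of the 37 promoters (16.2%) against 3.66% of all promoters, and 2 of the 7 matches shown contain it, so these searches overlap. The forkhead letters GTAAACA stood in 3 of 37 (8.11%) against 3.17% of all promoters.

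Of 22 smooth muscle genes, 20 lay above the median gene and 9 above the 90th percentile, and their median percentile was 81.8 ± 0.83. Acta2, the smooth muscle actin, had intensities of 11927, 14110 and 15913 (13.76 ± 0.21), rank 47. Its level rests on a probe set marked for possible cross-hybridization. Its other 2 probe sets lay at 6.56 and 7.30, and without the marked probe set its rank was 11351. Myh11, the smooth muscle myosin heavy chain, had 4758, 4411 and 5508 (12.25 ± 0.16), rank 645, with another probe set at 5.30. The kinase Mylk, which triggers contraction by phosphorylating myosin, had 9984, 9676 and 10776. Tagln and the tropomyosin Tpm2 stood at 12.90 ± 0.11 and 13.05 ± 0.38. Casq2, a calcium store protein best known from heart, was the only member below the reference level. In a tissue sample, fewer cells of a type and less RNA per cell cannot be told apart, so levels are not cell numbers. The CArG box, the serum response factor site of muscle genes, stood in 1 of 20 promoters of these genes (5%) and in 1.47% of all promoters.

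Stromal fibroblast genes had a median percentile of 93.5 ± 1.49, and 20 of 21 lay above the median gene. Dcn, the collagen-binding proteoglycan decorin, had intensities of 12165, 11806 and 13095 (13.59 ± 0.08). The fibrillar collagens Col3a1 and Col1a2 stood at 13.46 ± 0.18 and 13.15 ± 0.19. Gsn, the highest member at 13.87 ± 0.21, is made by many cell types. Dpp4 was lowest, at 8.44 ± 0.32. Over all 42 collagens the picture was mixed, with 24 above the median gene, 5 above the 90th percentile and 15 below the reference level. The share above that level, 64.3%, was near the 66.1% of all genes.

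Markers of the outer mesothelium were nearer the middle of the range. Of 11, 7 lay above the median gene and 1, Wt1, above the 90th percentile, and the median percentile was 57.7 ± 2.86. Wt1, a zinc finger transcription factor of mesothelium and of several urogenital tissues, had intensities of 4526, 4245 and 3323 (11.96 ± 0.24), rank 882, and was lowest in replicate 3. Upk3b, a uroplakin of mesothelium, had 1074, 2417 and 1489 (10.62 ± 0.59), lowest in replicate 1. Gpm6a stood at 10.10 ± 0.09, the Wnt enhancer Rspo1 at 9.74 ± 0.32 and Msln at 9.42 ± 0.42. Wt1 was the highest of the list. Pkhd1l1 was lowest at 5.11 ± 0.90.

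**Figure D2:**
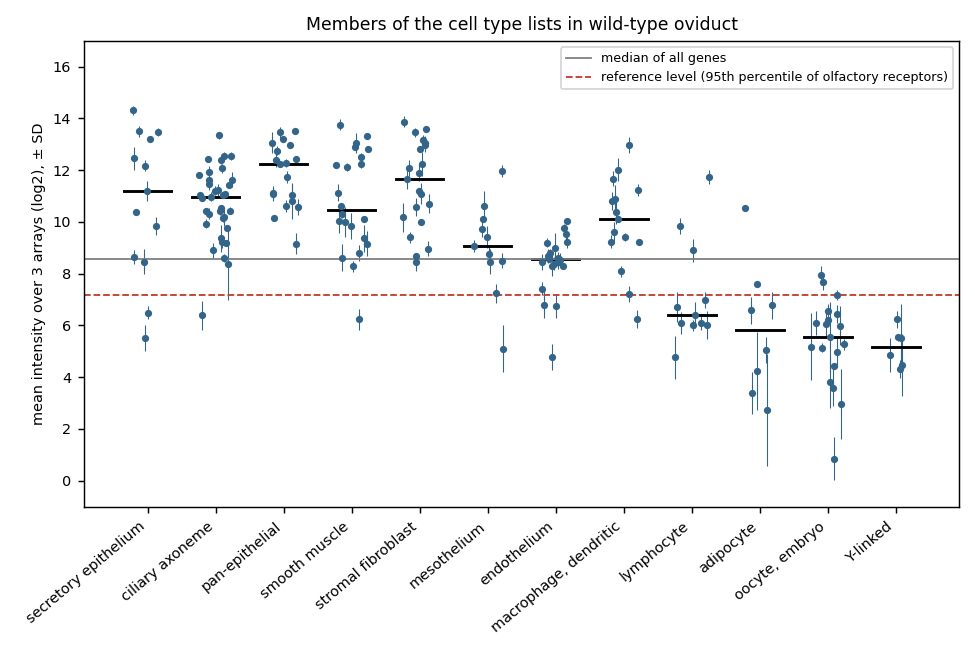
Mean log2 intensity of each measured member of 12 marker lists (points, with vertical bars for the SD over 3 arrays; horizontal bars are list medians). Epithelial, ciliary, muscle and stromal lists lie mostly above the median of all genes at 8.57 (grey line), and most oocyte, embryo and Y-linked genes lie below the reference level at 7.17 (dashed line).

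Vessel and blood cell markers were uneven. Of 20 endothelial genes, 17 lay above the reference level, 10 above the median gene and 0 above the 90th percentile. The shares over all genes are 66.1%, 50% and 10%. The highest were the junction protein Esam at 10.04 ± 0.02, the receptor component Ramp2 at 9.76 ± 0.17, the tight junction protein Cldn5 at 9.55 ± 0.32 and the lymphatic marker Lyve1 at 9.23 ± 0.26, and the lowest the lymphatic regulator Prox1, at 4.79 ± 0.51. Macrophage and dendritic cell genes stood higher, with 12 of 15 above the median gene. H2-Aa, a class II histocompatibility chain that presents antigen, had intensities of 6721, 7445 and 10150, and its chaperone Cd74 had 2918, 4542 and 5358. Csf1r, the receptor that sustains macrophages, stood at 11.68 ± 0.28 and the scavenger receptor Cd163 at 6.26 ± 0.35.

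Among lymphocyte genes, 3 of 11 (27.3%) lay above the reference level, against 66.1% of all genes. Jchain, the joining chain of secreted antibodies, had intensities of 3802, 2752 and 3843 (11.74 ± 0.27), and Mzb1, a chaperone of antibody-secreting cells, stood at 9.85 ± 0.32. Cd8a, of cytotoxic T cells, was the other, at 8.90 ± 0.43, but from a probe set marked for possible cross-hybridization. Its other 4 probe sets lay between 3.84 and 6.02, below the reference level. The B cell gene Ms4a1 (6.98 ± 0.33) and the T cell gene Cd4 (4.77 ± 0.84) were below the reference level. The genes of antibody-secreting cells were thus the highest of the list.

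Markers of neighbouring organs and of the passengers were mostly low. Over all genes, 66.1% lay above the reference level. Of 19 oocyte and embryo genes, 3 lay above the reference level, namely Gdf9 (7.93 ± 0.37), Zar1 (7.68 ± 0.30) and Ooep (7.19 ± 0.20), and 0 above the median gene. Only 2 of them, Gdf9 and Zar1, lay above the reference level in all 3 arrays. The zona protein gene Zp2 stood at 6.56 ± 0.26 and the embryonic gene Tdgf1 at 0.85 ± 0.84. The labels do not say whether embryos were flushed out before extraction. None of 7 sperm genes lay above the reference level, from the anchoring protein gene Akap4 at 6.26 ± 0.53 and the protamine Prm1 at 5.79 ± 0.61 through Odf1, Prm2, Tnp1 and Smcp to Tnp2 at 2.77 ± 0.38. Of 4 cumulus genes, Ptgs2 at 7.42 ± 0.30 lay above it on average, but not in replicate 2, with an intensity of 143.1. Tnfaip6, Ptx3 and Has2 stood at 6.85, 6.85 and 5.29. Of 11 ovarian genes, 5 lay above the reference level. Inhbb, an inhibin and activin subunit, was highest at 9.73 ± 0.17, followed by the granulosa factor Foxl2 at 9.18 ± 0.18, Inha at 8.57 ± 0.29 and Star, which feeds cholesterol to steroid synthesis, at 7.98 ± 0.23. The other probe sets of Foxl2 and Star lay below the reference level. Amh, the granulosa hormone, stood at 3.69 ± 0.56.

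Of 5 uterine gland genes, 3 (60%) lay above the reference level and 1 above the median gene. Over all genes, 66.1% and 50% did, so the first share was near that of all genes. Those above the reference level were the gland factor Foxa2 at 10.06 ± 0.19, the chemokine Cxcl15 at 7.70 ± 0.33 and the protease gene Prss29 at 7.39 ± 0.54. In replicate 1, Prss29 lay below that level, with an intensity of 121. Other probe sets of Prss29 (4.55 and 5.46) and of Cxcl15 (6.70) also lay below it. Prss28, a related protease gene, stood at 2.23 ± 0.93 and the implantation cytokine Lif at 5.44 ± 1.03. Fat cell genes were low apart from Lpl (10.52 ± 0.11), which other cells also make: 2 of 8 lay above the reference level. None of 4 red cell genes did (Klf1, Hba-a1, Slc4a1 and Alas2, from 6.56 down to 5.66). Of 9 neutrophil and mast cell genes, 1 did (Cpa3, at 7.41 ± 0.64, but below that level in replicate 1 with 104). Of 13 nerve and glia genes, 5 did, with S100b highest at 9.39 ± 0.17. None of 7 liver genes did (Apoa2, Alb, Tat, Fga, Apoa1, Ttr and Fgb, from 6.15 down to 1.68), and 3 of 10 striated muscle genes did, the highest being Myh7 at 8.97 ± 0.11. Of 5 pancreatic and retinal genes, 1 did, Cela1 at 7.32 ± 0.14.

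The sex of the tissue was as labelled. Xist, the RNA that coats the inactive X chromosome of females, had intensities of 7353, 9781 and 10932 (13.17 ± 0.30), rank 175. None of 6 Y-linked genes lay above the reference level, the highest being Kdm5d at 6.23 ± 0.32.

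**Figure D3:**
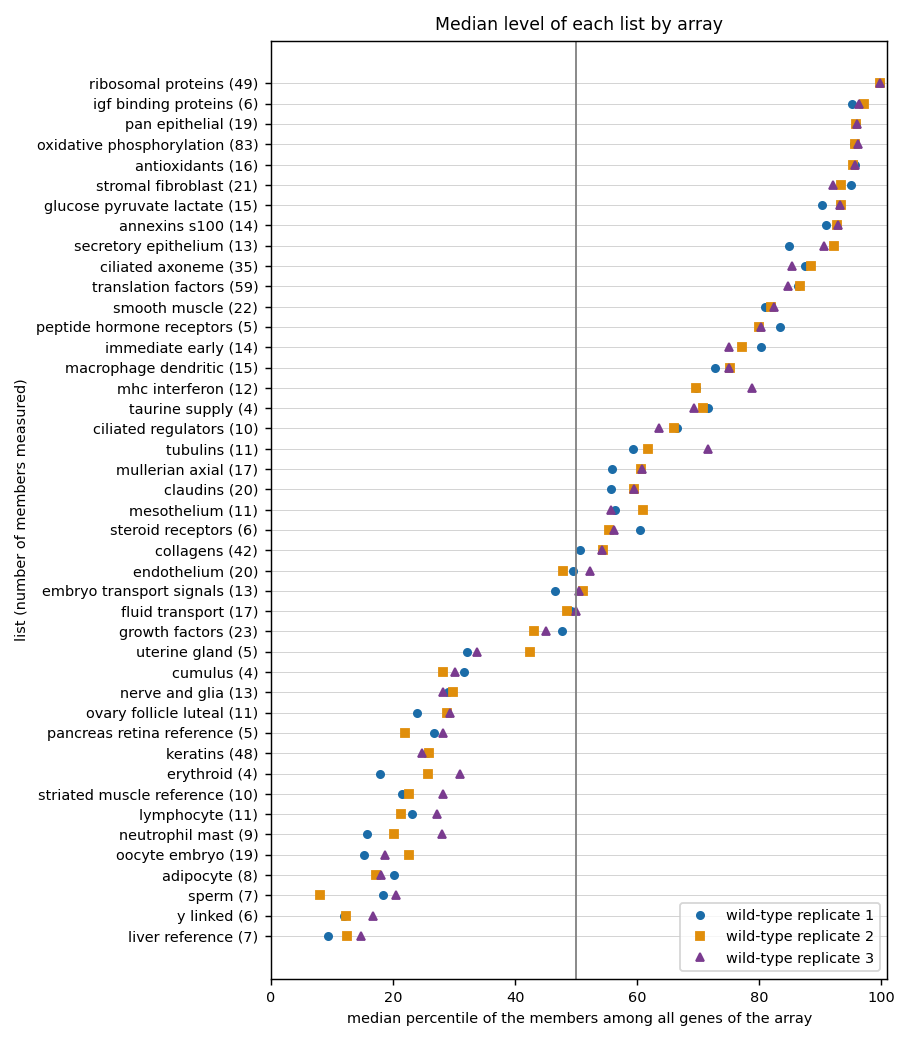
Median percentile of the members of each list among all genes of an array (x axis; points are the 3 arrays, and the vertical line marks the median gene at 50). Ribosomal, epithelial, stromal and metabolic lists lie to the right, and sperm, Y-linked and liver lists lie farthest to the left.

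Hormone receptors separated sharply. Esr1, the estrogen receptor alpha, had intensities of 8014, 8151 and 8638 (13.01 ± 0.06), rank 233, nearly even over the arrays by this probe set. Pgr, the progesterone receptor, had 3494, 3675 and 4585 (11.93 ± 0.21), rank 925. Esr2, the estrogen receptor beta, had 45.2, 34.1 and 21.2, below the reference level in every array. The glucocorticoid receptor Nr3c1 stood at 10.26 ± 0.20, the mineralocorticoid receptor Nr3c2 at 7.53 ± 0.27 and the membrane estrogen receptor Gper1 at 6.76 ± 0.35. Dimmer probe sets of Esr1 lay at 11.02 and 7.38, and those of Pgr at 6.78 and 5.84. Those of Esr1 were not even: both were highest in replicate 1, with 2849, 1697 and 1850, and with 334, 158 and 87.6. The androgen receptor was not analysed here.

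Among receptors for peptide hormones, the insulin-like growth factor receptor Igf1r stood at 11.74 ± 0.05, the growth hormone receptor Ghr at 11.16 ± 0.25 and the insulin receptor Insr at 10.51 ± 0.13. The follicle-stimulating hormone receptor Fshr (7.21 ± 0.44) and the oxytocin receptor Oxtr (6.89 ± 0.43) stood close to the reference level. The median percentile of these 5 receptors was 81.2 ± 1.95, but 51.5 with the mean of all probe sets and 46.5 without cross-hybridizing probe sets.

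Of 227 genes from transcription factor families, 44.5% lay above the median gene and 8.37% above the 90th percentile, so as a class they were not high. The 12 highest of this list, which leaves out some factors such as Myb and the Fos and Jun genes, were led by Sox17 and Esr1. The place of Sox17 rests on a probe set marked for possible cross-hybridization. Its other probe set, at 10.96, lay below Nr1d2 at 11.60, the lowest of the 12. Meis2, a homeobox cofactor, had intensities of 6252, 5949 and 6994 (12.64 ± 0.12). Sox4 stood at 12.14 ± 0.27, Klf3 at 12.08 ± 0.24 and Klf9, a progesterone receptor partner, at 12.05 ± 0.16. Foxj1, Wt1 and Pgr came in the same band. Emx2, a homeobox gene needed to form the reproductive tract, had 4031, 3775 and 3813 (11.92 ± 0.05). Foxo3 stood at 11.70 ± 0.06. Nr1d2, a clock repressor, was the least even of the 12, with 4713 in replicate 1 against 2441 and 2590 in the others.

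**Figure D4:**
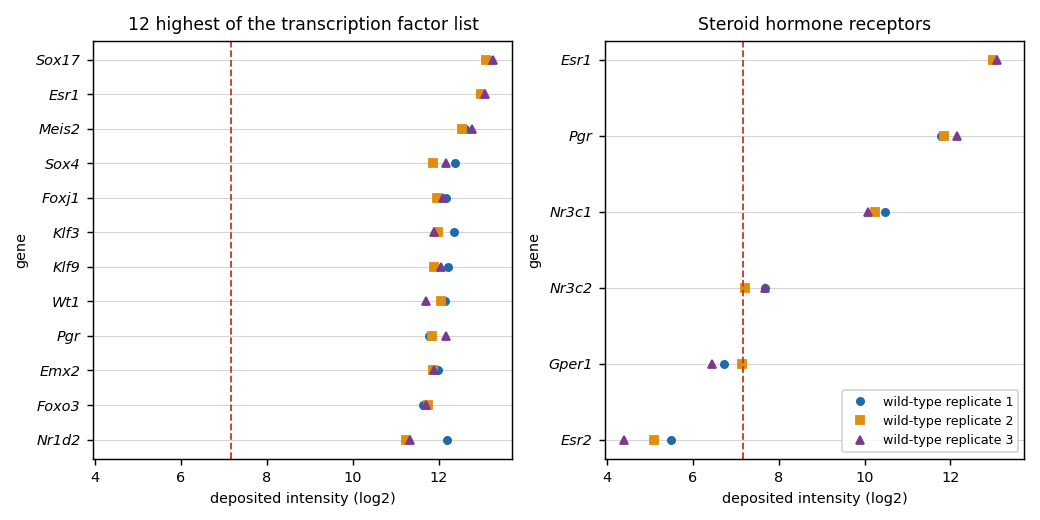
Log2 intensity in each array (points) of the 12 highest members of the transcription factor list (left) and of 6 steroid hormone receptors (right), with the reference level at 7.17 as a dashed line. Esr1 and Pgr lie far to the right of Esr2, and Nr1d2 is set apart in replicate 1.

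Of 4 Hoxa genes that pattern the female tract along its length, Hoxa9 alone lay above the reference level. Hoxa9, whose expression marks the oviduct end of the tract, had intensities of 2079, 1233 and 1501 (10.61 ± 0.38). Hoxa10, typical of the uterus, had 141, 133 and 139 (7.11 ± 0.04). Hoxa11, of the lower uterus and cervix, had 78.3, 132 and 110, and Hoxa13, of the upper vagina, had 39.5, 83.0 and 70.5. The means of these 3 lay below the reference level, so their order is not read. The other Hox genes were looked at after these values had been seen. Of 23 measured in paralogue groups 1 to 9, 13 lay above the median gene and 6 below the reference level. Of 10 in groups 10 to 13, 0 lay above the median gene and 10 below the reference level. Over all genes, 33.9% lay below that level. The highest of all 33 were Hoxa5 (11.30 ± 0.38), Hoxc8 (11.21 ± 0.35) and Hoxb6 (11.19 ± 0.04). Outside the Hox genes, Nr2f1 stood at 10.96 ± 0.07 and Lhx1, which acts early in duct formation, at 3.79 ± 1.71. Over 17 genes of tract formation the median percentile was 59.1 ± 2.83, but 39.0 without cross-hybridizing probe sets.

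Among secreted factors, parts of the insulin-like growth factor system stood high. The 6 genes of the Igf binding protein list were Igfbp2 to Igfbp7. Most proteins of this family bind the growth factor outside the cell. All 6 lay above the median gene, with a median percentile of 96.2 ± 0.99. Igfbp4 had intensities of 9055, 11172 and 12848, and Igfbp7, Igfbp5, Igfbp6, Igfbp3 and Igfbp2 stood at 12.75, 12.51, 12.06, 10.27 and 9.50. Igf1 itself had 2448, 2619 and 2989 (11.39 ± 0.15), against 7.99 ± 0.20 for Igf2, which lay below the median gene. Of 23 growth factors, 10 lay above the median gene. Fgf1 was highest at 11.71 ± 0.20, then Igf1, Kitl at 10.77 ± 0.06 and Tgfb3 at 10.45 ± 0.08. Fgf2 was lowest at 2.94 ± 2.61.

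Tubal fluid depends on ion and water transport, and here a few genes were high and the list was not: 8 of 17 lay above the median gene and 4 above the 90th percentile. The sodium pump subunit Atp1b1 stood at 12.43 ± 0.09. The chloride importer Slc12a2 had 4157, 3744 and 3607, the carbonic anhydrase Car2 had 4068, 3422 and 3323, and the bicarbonate carrier Slc4a4 stood at 11.45 ± 0.29. The chloride channel gene Cftr followed at 11.18 ± 0.19. Aqp3, a water and glycerol channel, was lowest at 4.94 ± 1.38. Enzymes and carriers of taurine, an abundant amino acid of tubal fluid, were moderate, from Csad at 10.31 ± 0.25 and Slc6a6 at 10.04 ± 0.11 to Ado at 9.68 ± 0.17 and Cdo1 at 8.20 ± 0.15.

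Glucose handling was high as a group, with 13 of 15 genes above the median gene and 10 above the 90th percentile. The glycolytic enzyme Pgk1 had intensities of 11704, 13165 and 15440, and Aldoa stood at 12.90 ± 0.27. The glucose carriers Slc2a3 and Slc2a1 stood at 12.84 ± 0.18 and 12.13 ± 0.14. The lactate carrier Slc16a3 was lowest at 7.23 ± 0.23. Antioxidant genes were as high, with 15 of 16 above the median gene and a median percentile of 95.5 ± 0.23. Gsto1, a glutathione transferase of the omega class, and Gstm1, of the mu class, stood at 13.48 ± 0.27 and 13.45 ± 0.25. The superoxide dismutase Sod1 had 10719, 12063 and 11353. Txn1, the thioredoxin, stood at 13.08 ± 0.10, and the glutathione peroxidase Gpx2 was lowest at 8.49 ± 0.37.

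Signals known to act on tubal transport were moderate. Of 13 measured, 6 lay above the median gene and 0 above the 90th percentile. The prostaglandin synthases Ptgds and Ptgis stood at 10.04 ± 0.43 and 9.90 ± 0.35, endothelin 1 (Edn1) at 9.94 ± 0.34 and the noradrenaline carrier Slc6a2 at 9.20 ± 0.23. The adrenergic receptor Adra1b was lowest at 4.27 ± 1.56. Tubulins were spread widely. Tuba1a and Tubb4b, the latter an abundant tubulin of cilia with 9989, 12301 and 9971, stood far above the neuronal Tubb3 at 2.76 ± 1.54. The level of Tuba1a rests on a probe set marked for possible cross-hybridization. The 14 annexins and S100 proteins of the list, which bind calcium, lay above the median gene, led by Anxa1 at 13.36 ± 0.17, Anxa2 at 13.03 ± 0.16 and S100a6 at 12.95 ± 0.24. S100a8, which was counted with the neutrophil genes instead, stood at 6.03 ± 1.54. All 12 histocompatibility and interferon genes also did. After Ifitm3 came B2m at 13.30 ± 0.25, H2-K1 at 12.64 ± 0.21 and H2-D1 at 12.22 ± 0.12, and Tap1 was lowest at 8.80 ± 0.39. The levels of H2-K1 and H2-D1 rest on probe sets marked for possible cross-hybridization. Probe sets of H2-D1 without that mark lay at 8.89 and 4.11.

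The arrays differed most among dim genes. The median SD over 3 arrays was 0.25 over all genes, 0.56 for genes in percentiles 0 to 25 and 0.16 for those in percentiles 90 to 100. Above the 75th percentile, 92 of 4548 genes had a range of over 1 on the log2 scale. Of these 92 genes, 40 (43.5%) were lowest in replicate 1 and highest in replicate 3, and 28 (30.4%) the reverse. Over all 4548 genes above the 75th percentile, 31.9% and 21.0% had these orders.

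Some of the widest ranges held up in other probe sets and some did not. Ctse, the protease cathepsin E, had intensities of 4173, 1700 and 436, a 9.57-fold range. Its other probe set gave 656, 1392 and 1191, where replicate 1 was lowest instead of highest. Pigt, which helps to attach lipid anchors to surface proteins, had 847, 3179 and 3397. A further probe set of Pigt gave 994, 2396 and 3391, also lowest in replicate 1. Ang, the secreted ribonuclease angiogenin, had 758, 1145 and 2700, and its next probe set gave 580, 741 and 1244 in the same direction. Igkv8-30, an antibody light chain gene, had 4150, 2191 and 6404. Rps6 of the small ribosomal subunit had 854, 2232 and 2477, and its other, dim probe set was also lowest in replicate 1. The remaining members of these 12 were Dnajc17, Rab5c, Nsa2, AW549877, Sh3d19, Gpcpd1 and Sema3f, with ranges from 2.74-fold to 4.16-fold.

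Immediate early genes, which respond within minutes to stimuli, including tissue handling, also varied. Fos had intensities of 5607, 4750 and 2209 (11.93 ± 0.72), and Egr1 had 4409, 3699 and 1844 (11.60 ± 0.66). Both were lowest in replicate 3, the array with the highest 3' to 5' ratios. Jund went the other way, with 3487, 3566 and 5709 (12.02 ± 0.40), highest in replicate 3. Jun had 3963, 3792 and 3391 (11.86 ± 0.12), lowest in replicate 3, and Egr2 lay below the reference level. The part of RNA shortening in these ranges was not tested.

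**Figure D5:**
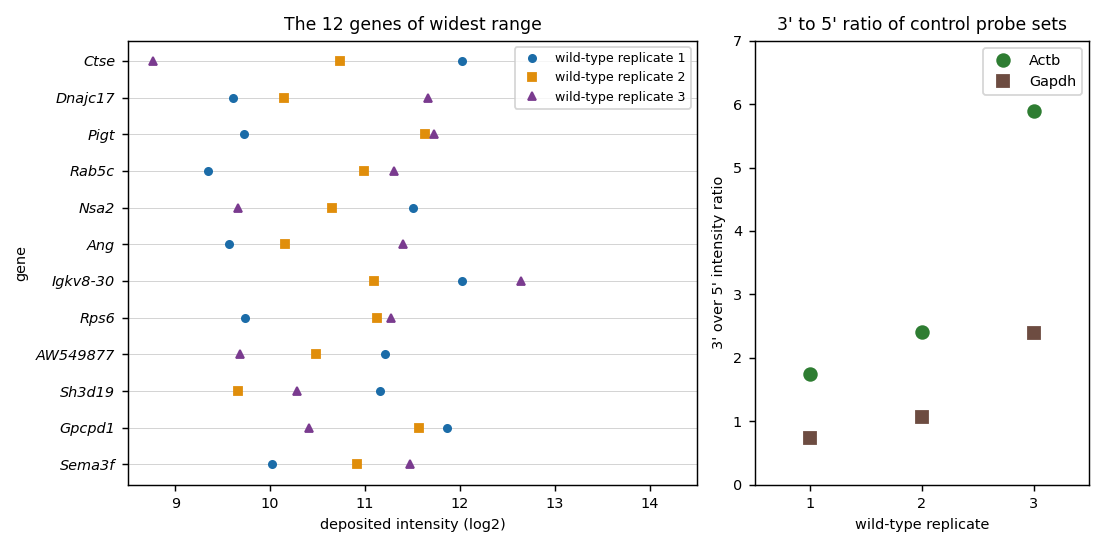
Left, log2 intensity in each array of the 12 genes of widest range among those above the 75th percentile; right, ratio of 3' over 5' signal for Actb and Gapdh control probe sets by array. Ctse spans the widest range, with replicate 3 lowest, and both ratios are highest in replicate 3, at 5.90 and 2.39.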

How the data were processed

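The table the authors deposited holds, on a linear scale, the intensity of 45101 probe sets in each array. How probes were combined into a probe set value is not stated in the labels, and the files name no genome build. From the values, each array had been scaled to a common trimmed mean (2% of probe sets removed at each end). After removal of 64 controls, 45037 probe sets remained. The platform annotation gives a single symbol for 34945, several for 932 and no entry for 9160, which stay unnamed. Values were raised to a floor of 1 before taking log2. A gene took its brightest probe set over the 3 arrays; 9010 of 18193 genes had several. Columns of 3 other samples entered only the alternative that chose probe sets over all 6 arrays.

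No group was compared, and no statistical test was run on the arrays. The members and the 45 gene lists were chosen with earlier results of these data known. Genes to name were drawn from the 6 markers Ovgp1, Foxj1, Acta2, Myh11, Wt1 and Pax8, the 40 highest genes, the 4 highest and the lowest of each list, all members of lists of 8 or fewer, the 12 highest of the transcription factor list and the 12 genes of widest range above the 75th percentile. Some of these are given only by counts. Others were named after their values were seen. Some genes are in several lists: Pax8 is a secretory and a tract gene, Muc16 a secretory and a mesothelial gene, and claudins and keratins recur among epithelial markers. Promoters came from RefSeq (GRCm38.p6). Depth has no meaning here; the number of arrays limits the precision. Alternatives were quantile normalization, log2 of the intensity plus 16, other rules for probe sets and leaving out each array. The ranking code was run on simulated data for 18193 genes with a dimmer copy of each probe set. The brighter was chosen in 100%, and simulated and recovered levels had a Spearman correlation of 0.996. Each copy was dimmer by the same amount in every array, so the choice was fixed in advance. The run checks the code only, and cannot show which of a gene's real probe sets follows abundance. Python 3.11.15, pandas 2.3.3, numpy 2.4.6, scipy 1.17.1 and matplotlib 3.10.9 were used.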

Additional observations from a re-analysis of the deposited data

How the results depend on the processing

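The choice of probe set moved the values most. With the mean of all probe sets of a gene, the mean correlation between arrays went from 0.965 to 0.955, 22 of the top 40 genes remained, and the median percentile went from 95.9 to 96.4 for general epithelial, from 81.8 to 74.1 for smooth muscle and from 57.7 to 73.7 for mesothelial genes. Without cross-hybridizing probe sets, 24 of the 40 remained, and the percentile was 96.6 for general epithelial, 84.7 for secretory, 82.8 for axoneme, 79.9 for smooth muscle and 54.0 for mesothelial genes. In both settings 23 ribosomal protein genes were in the top 100, against 32. Ovgp1 and Wt1 have no probe set left in the latter setting. With log2 of the intensity plus 16 the mean correlation was 0.979. Quantile normalization, and choosing the brightest probe set over all 6 arrays, left 40 of the 40 genes in place. Leaving out 1 array kept 38 to 39 of them and gave a median SD between 0.17 and 0.25. Over the 39 other lists, 272 of 312 values moved by less than their SD, and the largest shift was 34.7 percentile points, for peptide hormone receptors without cross-hybridizing probe sets. No paired analysis was possible because no groups were compared. Array agreement was not run with an array left out. The cause of these shifts was not tested. Signal over background is unknown for dim probe sets.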

Other observations

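Part of the brightest signal has no single gene name in the annotation used. Of the 100 brightest probe sets, 46 carry several gene symbols and 10 are not listed; among the 1000 brightest these numbers are 145 and 56. The brightest unlisted probe set had intensities of 16314, 18972 and 21406 in wild-type replicates 1, 2 and 3 (log2 mean 14.20 ± 0.20, SD, n = 3), which lies within the range of the 40 highest named genes. The ranking of named genes therefore leaves out transcripts as bright as those it lists.

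The choice of the brightest probe set also carries weight within genes. Among genes with several probe sets, the second brightest was dimmer by a median of 1.39 on the log2 scale, and in 35.6% of them it was dimmer by over 2. Of the 100 highest genes, 70 had several probe sets, and in 43 the second lay within 1 of the brightest.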
